A study of Mus musculus with 9 samples.

Results

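Potassium channel genes were examined in mouse hippocampus after a high-methionine diet, with and without betaine. Of 54532 genes listed, 94 were protein-coding genes whose symbols begin with Kcn, and the 70 of them with a mean of at least 1 FPKM (fragments per kilobase of transcript for a fixed number of mapped fragments) over 9 libraries form the set described here. They were thus selected on their measured level over all groups, and the betaine libraries took part in that selection.

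The libraries came from hippocampus of C57BL/6 mice that the labels call male and purchased at 6 to 8 weeks of age; the published methods call the animals female, and the sex was not settled here. The strain field of 2 betaine libraries reads C57BL/7 and C57BL/8, while their growth protocol names C57BL/6, which was taken as the strain of all libraries. The Con group ate a standard diet, the HMD group was fed high methionine over 8 weeks, and the Bet+HMD group followed the same 8 weeks with 2 weeks of betaine (2.5% w/v) in drinking water. Whether the methionine diet went on during betaine is not given in the sources used here. There were 3 libraries in each group, no genetic change was made, and the labels name no separate animal for each library, so p-values measure the spread between libraries. The question behind the design is which transcripts differ with a diet that raises homocysteine and which differ again with betaine, a methyl donor. An earlier table holds the Con and HMD libraries, and a later table holds the same 6, processed again, with the Bet+HMD libraries added. The Bet+HMD libraries therefore differ from the others by a later deposit as well as by betaine and 2 more weeks of age, and these cannot be told apart.

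Potassium channels let potassium leave the cell along its gradient and so set the resting potential, repolarize the action potential and limit repetitive firing. Voltage-gated (Kv) channels open on depolarization, calcium- and sodium-activated channels follow ion entry, inwardly rectifying (Kir) channels hold the membrane near the potassium equilibrium potential or respond to G proteins and ATP, and two-pore-domain (K2P) channels carry leak current. Auxiliary proteins (Kv beta subunits, KChIPs, KCNE and BK beta subunits) bind the pore-forming subunits and change their gating or traffic. In hippocampal pyramidal cells, Kv4 channels with KChIPs shape dendritic excitability, Kv7 channels carry the M-current, and Kir4.1 in astrocytes takes up potassium released by firing.

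The pore-forming genes of the set shared a sequence signature. The set was selected by symbols that name potassium channel genes, so the signature describes the set and tests nothing. In the longest complete coding sequence of each gene (GENCODE M21, GRCm38), all 59 pore-forming genes held the selectivity filter pattern, searched as threonine or serine, then valine, isoleucine or leucine, then glycine, then tyrosine, phenylalanine or leucine, then glycine. The pattern was found once in 51 of them and at 2 places in 8. Those 8 were K2P channels, out of 9 K2P genes in the set. In the other K2P gene, Kcnk1, it was found once, at codon 225 of 336. A filter that departs from the searched pattern would be missed, so 1 match does not show that Kcnk1 has a single filter. None of the 11 auxiliary genes held the pattern, and it was present in 1.35% of 21501 protein-coding genes. The stretches below code for the filter of genes called in the betaine comparisons, from the sodium-activated, K2P, Kv10 to Kv12 and Kir classes. Each runs 5′ to 3′ on the coding strand over 60 bases, and the capitals mark the 15 bases of the 5 filter codons.
Kcnt1: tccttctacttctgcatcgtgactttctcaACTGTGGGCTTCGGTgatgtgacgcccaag
Kcnk1: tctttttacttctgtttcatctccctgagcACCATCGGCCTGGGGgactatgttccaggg
Kcnk12: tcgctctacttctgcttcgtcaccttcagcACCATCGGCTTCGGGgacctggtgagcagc
Kcnh4: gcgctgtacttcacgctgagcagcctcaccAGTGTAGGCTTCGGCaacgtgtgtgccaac
Kcnh7: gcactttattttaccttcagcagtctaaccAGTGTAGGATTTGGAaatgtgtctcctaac
Kcnj9: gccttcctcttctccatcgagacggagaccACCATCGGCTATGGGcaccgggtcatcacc
Kcnj4: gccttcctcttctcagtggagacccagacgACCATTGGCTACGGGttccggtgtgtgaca

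These stretches lie within single coding exons. The Kcnt1 stretch is at chr2:25894337-25894396 (plus strand, exon 11 of 32) and that of Kcnk1 at chr8:126025299-126025358 (plus strand, exon 2 of 3). The second filter of Kcnk12 is at chr17:87746438-87746497 (minus strand, exon 2 of 2), that of Kcnh4 at chr11:100750278-100750337 (minus strand, exon 8 of 17), and that of Kcnh7 at chr2:62777328-62777387 (minus strand, exon 8 of 16). Kcnj9 has its filter at chr1:172326169-172326228 (minus strand, exon 3 of 4) and Kcnj4 at chr15:79485352-79485411 (minus strand, exon 2 of 2).

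The highest level in the set belonged to an auxiliary gene. Kcnab2, which encodes the Kv beta 2 subunit of Kv1 channels, was measured at 117 ± 5.33 FPKM in Con (mean ± SD, n = 3). Of the 10 highest genes, others were, in order, Kcnip2 (KChIP2, a Kv4 partner) at 40.1 ± 1.35, Kcnd2 (Kv4.2) at 35.2 ± 7.35, Kcnk1 (TWIK1) at 34.6 ± 6.06 and Kcnj10 (the astrocyte channel Kir4.1) at 32.9 ± 2.79 FPKM. Kcnd2, Kcnk1 and Kcnj10 differed by less than the SD of Kcnd2, and so did Kcnip2 and Kcnd2. Below them came Kcnj3 (GIRK1, a G protein-gated subunit) at 31.5 ± 6.03, Kcnj4 (Kir2.3) at 30.1 ± 1.56 and Kcnq3 (Kv7.3, an M-current subunit) at 20.7 ± 3.75 FPKM.

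In the remaining families the leading genes were lower. Kcna2 (Kv1.2, an axonal channel) led the Kv1 family at 19.9 ± 1.62 FPKM in Con, Kcnma1 (the BK pore subunit) was at 18.5 ± 2.83, Kcnh3 (Kv12.2) at 16.2 ± 2.46 and Kcnv1 (a silent Kv subunit) at 15.5 ± 2.07. Levels were lower again for Kcnj11 (Kir6.2, the ATP-sensitive pore) at 8.06 ± 0.521, Kcne2 at 7.98 ± 5.35, Kcnn2 (SK2) at 6.45 ± 0.915 and Kcnt2 (Slick) at 5.13 ± 0.834 FPKM. Over all 9 libraries, 28 genes of the set had a mean of at least 10 FPKM and 42 lay from 1 to 10, with a median of 7.08 FPKM beside 6.77 FPKM for all 11915 protein-coding genes with a mean of at least 1.

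**Figure D1:**
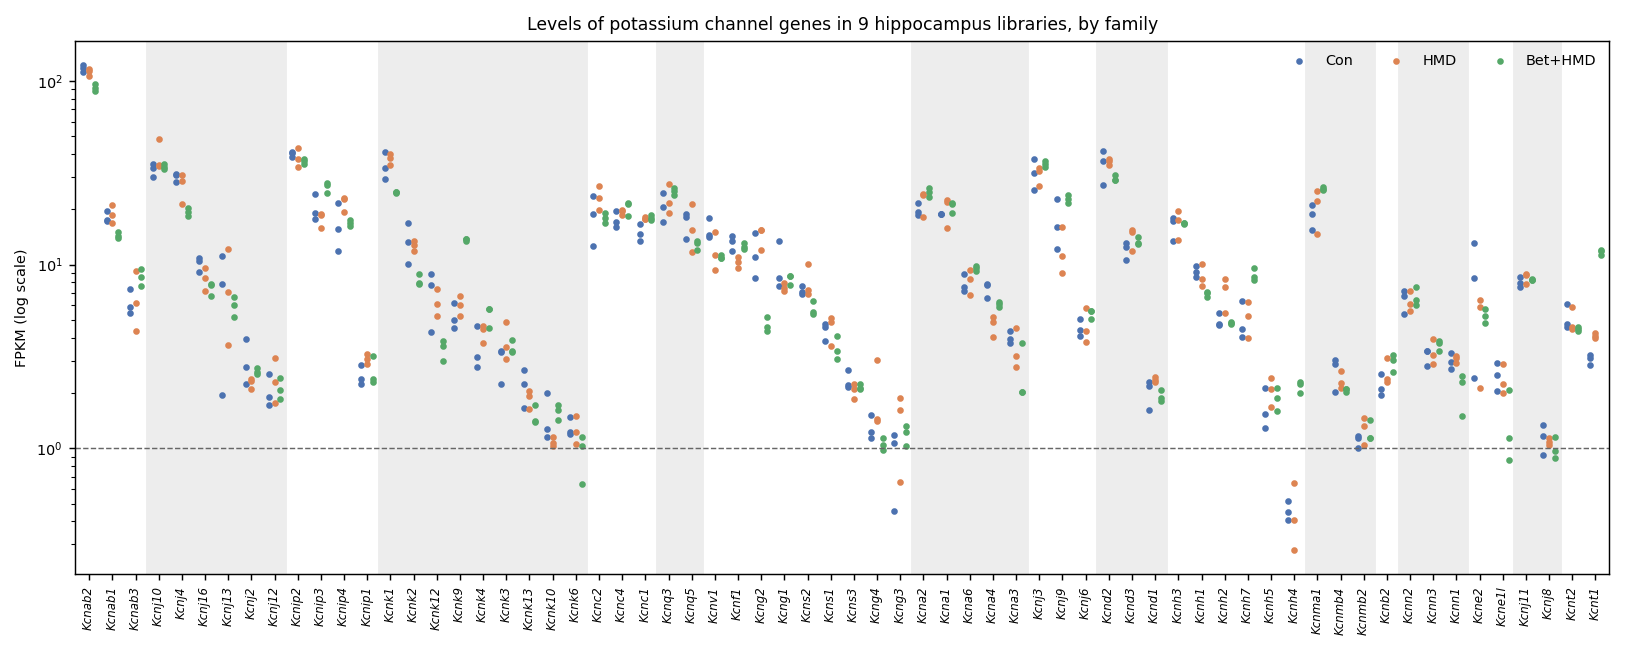
FPKM on a log axis for 66 of the 70 potassium channel genes, grouped by family (alternate shading), with 3 libraries a group as points and a dashed line at the 1 FPKM threshold on the mean. Kcnab2 stands highest, and Kcnh4 has all 6 Con and HMD libraries under the line and all 3 Bet+HMD libraries over it.

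The genes just inside the threshold were Kcnh4 (Kv12.3) with a mean of 1.02 FPKM, Kcnj8 (Kir6.1, of vascular cells) with 1.08 and Kcng3 (a silent Kv subunit) with 1.16. Just outside were Kcna5 with 0.83, Kcnh6 with 0.61 and Kcne4 with 0.60 FPKM. In 66 of the 70 genes, the mean was at least 1 in each group taken alone. Kcnh4 was 1 of 2 genes that passed only through the Bet+HMD group, so the direction of their betaine differences was set by the selection and supports nothing. Of the 24 Kcn genes left out, 11 were at 0 FPKM in 3 or more libraries.

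The depth was 16031464 to 18291952 reads assigned to genes in the later table, and single genes of the set held 17 to 11878 reads in a library. The summed FPKM of all genes was lower in Bet+HMD (249135 to 258514) than in the other libraries (288439 to 307899), and more genes were detected (25315 to 25663 against 20816 to 23272). Neuron, astrocyte and oligodendrocyte markers were present in all libraries, as were those of hippocampal neurons (184 to 224 FPKM summed), and none of the 65 markers used was at 0 throughout. The markers of other regions and cell types differed between libraries. The summed level of 6 thalamus markers was 13.6, 17.8 and 16.4 FPKM in Con, 83.2, 24.2 and 33.9 in HMD and 23.1, 21.9 and 22.7 in Bet+HMD, so the first HMD library stood apart. For 6 choroid plexus markers, Con gave 771, 2575 and 3207, HMD 2574, 867.7 and 1939 and Bet+HMD 1211, 1189 and 937 FPKM. The sum of 6 GABA neuron markers ran from 269 to 344 FPKM in Con and HMD and from 196 to 224 in Bet+HMD. In FPKM, whose total was lower in Bet+HMD, this was not particular to GABA neurons. Sums in Bet+HMD were also lower for neurons in general (711 to 724 against 759 to 948) and astrocytes (355 to 377 against 395 to 470). Microglia markers gave 71.8 to 72.3 against 86.2 to 106 FPKM. The sums for hippocampal neurons, oligodendrocytes and endothelium overlapped between Bet+HMD and the other libraries. In bulk tissue, fewer cells of a type and less RNA per cell cannot be told apart. The part of the lower FPKM total in these sums was not tested.

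The first comparison asked which potassium channel transcripts differ after the methionine diet. None passed the test: limma on log2(FPKM + 1), with Benjamini-Hochberg adjustment over 12989 genes, called 0 of the 68 genes of the set that passed a mean of 1 FPKM in the earlier table, where 0% of all genes were called. The smallest adjusted p in the set was 0.726. Kcnh4 was 1 of the 2 not tested. Unadjusted, 4 of 68 genes had p under 0.05 beside 4.56% of all genes, and the groups did not overlap for 6 of 68 beside 9.37% of all genes. The median log2 fold change of the 68 was 0.05, against -0.00 for all genes tested.

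Kcna4, which encodes the A-type channel Kv1.4, had the smallest p. Its level was 7.58, 6.47 and 7.64 FPKM in Con and 5.19, 3.95 and 4.77 in HMD, with every HMD library below every Con library (log2 fold change -0.55, SE 0.13, adjusted p = 0.726, unadjusted p = 0.00276). Kcnf1, a silent subunit that joins Kv2 channels, had 13.2, 11.7 and 14.0 FPKM in Con and 11.05, 9.32 and 10.3 in HMD, again without overlap (log2 fold change -0.31, SE 0.12, adjusted p = 0.98). For Kcnt1, the sodium-activated channel Slack, Con gave 3.07, 3.23 and 2.76 and HMD 4.06, 3.83 and 4.21 FPKM, and here the HMD libraries were the higher ones (log2 fold change 0.33, SE 0.11, adjusted p = 0.98). Kcnh2 (Kv11.1, or ERG1) had 4.66, 4.63 and 5.30 FPKM in Con and 8.25, 5.39 and 7.37 in HMD (log2 fold change 0.43, SE 0.15, adjusted p = 0.98). Its 3 HMD libraries stood above Con in the order of the thalamus marker sums, with the first highest; the part of those markers in the difference was not tested.

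The other named genes lay further from the threshold, each with an adjusted p of 0.98. On the log2 scale, the HMD minus Con difference was -0.44 for Kcnj9 (GIRK3), -0.38 for Kcnv1 and -0.24 for Kcnj16 (Kir5.1, the partner of Kir4.1 in glia). It was 0.44 for Kcnip4 and 0.23 for Kcnip1, both KChIPs, and 0.25 for Kcnc1 (Kv3.1). The 4 Kv3 genes and the 3 Kv4 genes all had higher means in HMD, by 0.15 (Kcnc4) to 0.36 (Kcnc2) and by 0.07 (Kcnd2) to 0.21 (Kcnd3) on the log2 scale, but none passed the test.

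**Figure D2:**
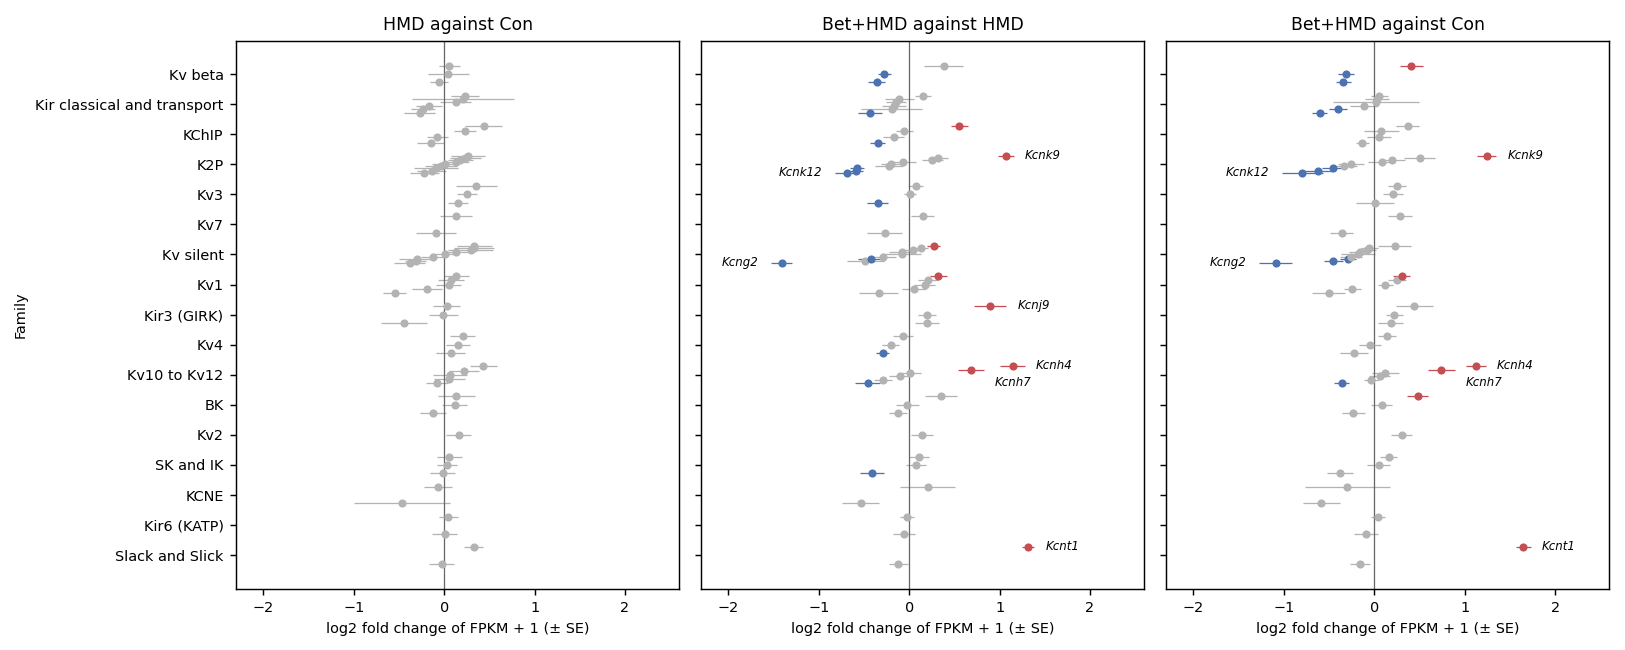
The log2 fold change of FPKM + 1 with its SE for potassium channel genes (66 of the 70 are drawn), by family, in the 3 comparisons (3 libraries a group); red and blue points passed limma's adjusted p of 0.05 as higher and lower, grey points did not. All points are grey in HMD against Con, and Kcnt1 and Kcng2 lie farthest out, to the right and to the left, in Bet+HMD against HMD.

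The second comparison, Bet+HMD against HMD, asked what differed after betaine in mice that had eaten the diet. Slack (Kcnt1), the leak channel TASK3 (Kcnk9) and GIRK3 (Kcnj9) were higher with betaine, while the silent subunit Kv6.2 (Kcng2) and the leak channels THIK2 (Kcnk12), TWIK1 (Kcnk1) and TREK1 (Kcnk2) were lower. In all, 24 of 70 genes were called, a share of 34.3% beside 48.3% of the 13672 genes tested. There were 11 higher beside 22.8% of all genes and 13 lower beside 25.5%. For 32 of the 70 genes no HMD library overlapped a Bet+HMD library, beside 60.1% of all genes, and 4 of the 70 were called with a log2 fold change of at least 1 in size beside 8.93%. The median log2 fold change of the set was -0.06 and that of all genes -0.03.

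The split between higher and lower depended on the scaling. When each library was rescaled to TPM, a unit in which all columns have the same sum, the median of all genes moved to 0.16, and 20 of the set were called higher beside 32.9% of all genes and 4 lower beside 14.4%. The 11 genes called higher in FPKM were among the 20, and the 4 lower were Kcng2, Kcnk1, Kcnk12 and Kcnk2. The other 9 genes called lower in FPKM lost their call in TPM. Without the first Bet+HMD library 14 of 70 genes were called, beside 4847 of 13545 genes tested. Without the second it was 15, beside 4782 of 13556. Leaving aside the 2 genes selected through the betaine libraries, 11 of 22 calls held without any 1 library, among them those of Kcnt1, Kcnk9, Kcnj9, Kcnh7, Kcnip3, Kcng2, Kcnk12, Kcnk1 and Kcnk2.

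Among the pore genes that rose, leaving aside Kcnh4, Kcnt1 (ENSMUSG00000058740, chr2:25863734-25918273, plus strand) had the largest log2 fold change. Its FPKM was 4.09, 3.998 and 4.23 in HMD and 12.1, 11.8 and 11.3 in Bet+HMD, in the same table where Con had 3.11, 3.23 and 2.83. Every Bet+HMD library was above every HMD library by a wide margin, a ratio of means of 2.85 (log2 fold change 1.32, SE 0.07, adjusted p = 3.64e-05). The related Slick gene, Kcnt2, did not pass (log2 fold change -0.12, SE 0.11, adjusted p = 0.371).

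The K2P family moved in both directions. Kcnk9 (ENSMUSG00000036760, chr15:72501089-72546340, minus strand) had 6.05, 6.72 and 5.25 FPKM in HMD and 13.8, 13.7 and 13.4 in Bet+HMD, and its groups were far apart (log2 fold change 1.07, SE 0.09, adjusted p = 0.000189). Kcnk12 (ENSMUSG00000050138, chr17:87745837-87797994, minus strand), which encodes THIK2, had 6.09, 5.26 and 7.37 in HMD and 2.97, 3.59 and 3.83 in Bet+HMD (log2 fold change -0.69, SE 0.13, adjusted p = 0.00429). All 3 betaine values for Kcnk12 were below the lowest HMD value. Kcnk1 fell from 37.8 ± 2.72 to 24.7 ± 0.276 FPKM (log2 fold change -0.59, SE 0.07, adjusted p = 0.000791), and Kcnk2, whose product opens on stretch and lipids, fell from 12.8 ± 0.8 to 8.22 ± 0.552 (log2 fold change -0.58, SE 0.08, adjusted p = 0.00123). Of the 9 K2P genes, 1 rose beside 22.8% of all genes, 3 fell beside 25.5% and 5 did not pass.

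Among Kir channels, Kcnj9 (ENSMUSG00000038026, chr1:172320501-172329318, minus strand) had 11.2, 9.02 and 16.1 FPKM in HMD and 22.8, 21.6 and 24.0 in Bet+HMD (log2 fold change 0.90, SE 0.18, adjusted p = 0.00595). The groups did not overlap, but the Con libraries, at 16.1, 12.1 and 22.8, overlapped both. Its partners Kcnj3 and Kcnj6 did not pass, with log2 fold changes of 0.20 and 0.19. Kcnj4 fell from 26.8 ± 4.92 to 19.4 ± 1.01 FPKM (log2 fold change -0.43, SE 0.13, adjusted p = 0.0322), a call lost without the second or the third HMD library or any 1 Bet+HMD library. Kcnj10, which clears potassium in astrocytes, was at 39.1 ± 7.77 and 34.2 ± 1.17 FPKM and did not pass (adjusted p = 0.313), and neither did the KATP genes Kcnj11 and Kcnj8.

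The Kv genes likewise divided. Kcnh7 (Kv11.3) rose from 5.16 ± 1.15 to 8.81 ± 0.734 FPKM (log2 fold change 0.69, SE 0.14, adjusted p = 0.00675). Kcna4 rose by 0.32 and the silent subunit gene Kcnf1 by 0.27 on the log2 scale (adjusted p = 0.0258 and 0.0234), both calls lost without any 1 Bet+HMD library. These 2 genes had the lower HMD values in the diet comparison, and the HMD libraries are shared by both comparisons.

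Lower Kv genes were led by Kcng2 (ENSMUSG00000059852, chr18:80294546-80364254, minus strand), a silent subunit that forms no channel alone. Its values were 12.0, 15.3 and 15.4 FPKM in HMD and 4.35, 4.596 and 5.19 in Bet+HMD, a level 3.03 times higher in HMD (log2 fold change -1.41, SE 0.11, adjusted p = 0.000149). The highest betaine value was far below the lowest HMD value. Kcnh2 (log2 fold change -0.46, SE 0.14, adjusted p = 0.0267) and Kcnc2, which encodes Kv3.2 of fast-spiking interneurons (log2 fold change -0.35, SE 0.11, adjusted p = 0.0372), were also lower. Kcnc2 had 26.8, 23.2 and 19.8 FPKM in HMD, highest in the library with the highest thalamus markers, and 17.9, 16.8 and 19.0 in Bet+HMD. Without that first HMD library neither passed: Kcnh2 gave -0.35 with adjusted p = 0.0744 and Kcnc2 -0.25 with adjusted p = 0.0914. Both calls were also lost without any 1 Bet+HMD library, that of Kcnh2 without the third HMD library and that of Kcnc2 without the second. Over the whole set, 22 of 70 genes were called without the first HMD library, beside 5855 of 13770 genes tested. The other called genes were Kcns2 (-0.42), another silent subunit, Kcnn1 of SK1 (-0.41) and Kcnd2 (-0.29), all lower on the log2 scale and all lost without the first or the second Bet+HMD library, Kcns2 also without the third and Kcnn1 also without any 1 HMD library.

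Auxiliary genes were called in 4 of 11 cases, beside 48.3% of all genes tested. Kcnip3 (KChIP3, also known as DREAM) rose from 17.8 ± 1.69 to 26.5 ± 1.85 FPKM (log2 fold change 0.55, SE 0.09, adjusted p = 0.00278). Kcnip4, Kcnab1 and Kcnab2 fell, with log2 fold changes of -0.35, -0.36 and -0.28. Leaving out the third Bet+HMD library ended the call of Kcnip4, the first or the second that of Kcnab1, and the first or the third that of Kcnab2.

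Kcnh4 (ENSMUSG00000035355, chr11:100740376-100759942, minus strand) is given as levels, since its selection rested on the betaine libraries. It had 0.447, 0.406 and 0.518 FPKM in Con, 0.408, 0.281 and 0.644 in HMD and 2.29, 2.23 and 2.00 in Bet+HMD, from as few as 17 reads to 157. The betaine libraries were the highest 3 of 9. The 2 genes selected in this way count among the 24 calls above, so that 22 remain without them.

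**Figure D3:**
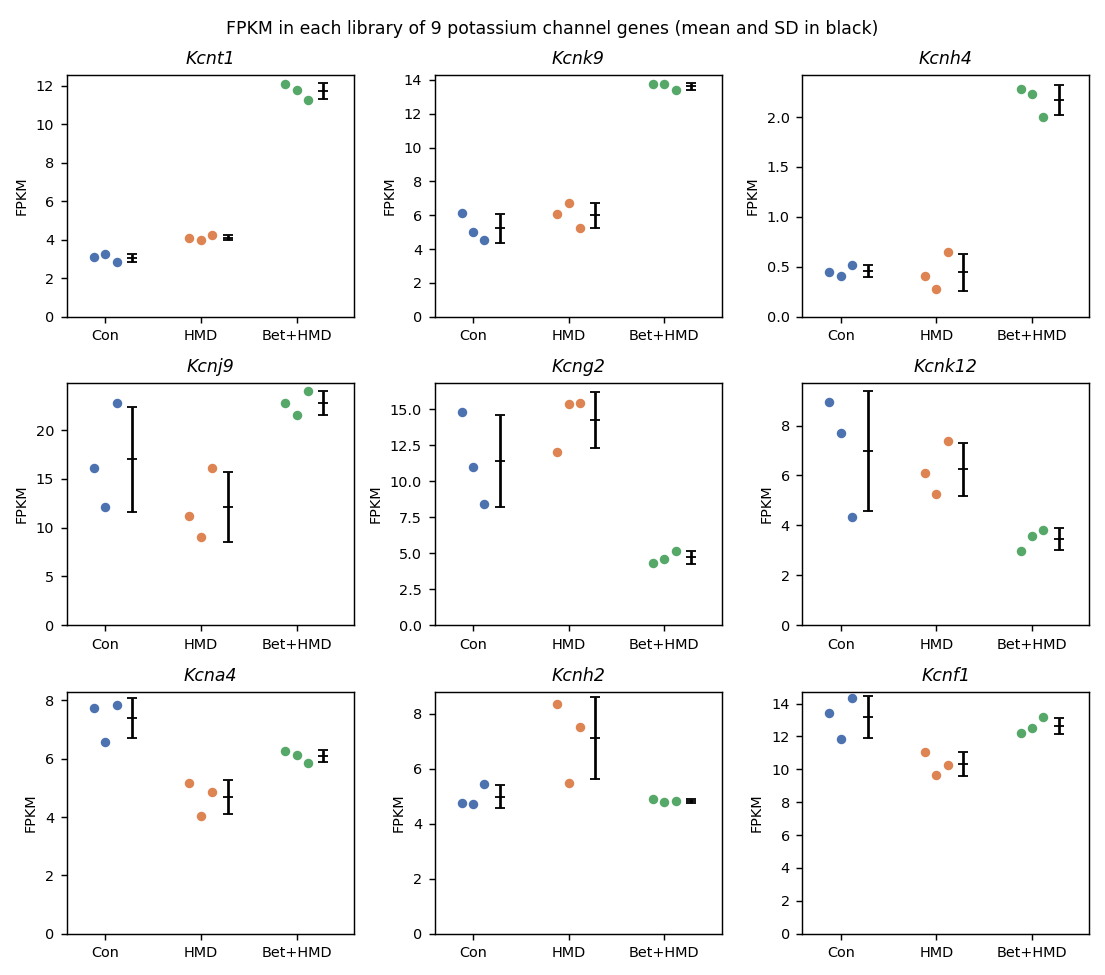
FPKM in each of the 9 libraries (points, by group) for 9 potassium channel genes, with group mean and SD in black. Kcnt1, Kcnk9 and Kcnh4 have all betaine libraries above the other 6, Kcng2 and Kcnk12 have them below the other 6, and Kcna4 and Kcnf1 have HMD lowest.

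The third comparison set Bet+HMD against Con, to ask whether the betaine group still differed from mice on the standard diet. It shares the Bet+HMD libraries with the comparison before it, so its values are given beside those and not as a second test. Kcnt1, Kcnk9 and Kcnh7 were higher than in Con and Kcng2 and Kcnj4 were lower. Of 70 genes, 21 were called beside 39.7% of 13643 genes tested. There were 10 higher beside 19.4% of all genes and 11 lower beside 20.4%, and the groups did not overlap for 34 genes beside 55.1%. With a log2 fold change of at least 1 in size, 4 of 70 were called beside 8.74%. The median of the set was 0.02 and that of all genes -0.04. In TPM the median of all genes was 0.17 and 22 genes of the set were called higher beside 29.2% of all genes and 2, Kcng2 and Kcnj4, lower beside 10.5%. The count fell to 10, 8 and 11 genes without the first, the second and the third Bet+HMD library. Of all genes tested, 3424 of 13538, 3347 of 13524 and 3302 of 13548 were called in those fits. Leaving aside the same 2 selected genes, 7 of 19 calls held without any 1 library, among them those of Kcnt1, Kcnk9, Kcnh7, Kcng2 and Kcnj4.

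Against the Con values of 3.11, 3.23 and 2.83 FPKM, the Bet+HMD level of Kcnt1 was 3.83 times as high (log2 fold change 1.65, SE 0.08, adjusted p = 0.000131). Kcnk9 had 6.16, 5.01 and 4.52 in Con, and its Bet+HMD mean was 2.61 times that (log2 fold change 1.24, SE 0.11, adjusted p = 0.000463). Kcnh7 (log2 fold change 0.74, SE 0.15, adjusted p = 0.00858) was also higher in 3 of 3 betaine libraries than in any Con library.

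Genes called against Con but not against HMD were few. Kcnma1 rose by 0.48, Kcnab3 (Kv beta 3) by 0.41 and Kcna2 by 0.30 as log2 fold changes, with adjusted p of 0.0178, 0.0393 and 0.0372. Their log2 fold changes against HMD were 0.35, 0.38 and 0.17, and whether the 2 contrasts differ was not tested. Lower genes of this kind were Kcnv1 (log2 fold change -0.45, SE 0.10, adjusted p = 0.0141), Kcnj16 (log2 fold change -0.40, SE 0.10, adjusted p = 0.0185) and Kcnh1, the Kv10.1 gene (log2 fold change -0.36, SE 0.08, adjusted p = 0.014). These 6 calls were each lost without at least the second Bet+HMD library. Kcnab3 overlaps an antisense gene on the opposite strand, and whether counting used strand is not given in the sources used here.

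Kcng2 had 14.8, 10.96 and 8.45 FPKM in Con, above all 3 betaine libraries (log2 fold change -1.09, SE 0.18, adjusted p = 0.00427). Kcnj4 was at 30.1 ± 1.56 FPKM in Con against 19.4 ± 1.01 in Bet+HMD (log2 fold change -0.60, SE 0.08, adjusted p = 0.00205). The 3 lower K2P genes of the previous comparison were lower again here: Kcnk12 (log2 fold change -0.80, SE 0.23, adjusted p = 0.0319), Kcnk2 (log2 fold change -0.62, SE 0.17, adjusted p = 0.027) and Kcnk1 (log2 fold change -0.46, SE 0.13, adjusted p = 0.0285). Kcnk12 spread widely in Con (8.94, 7.71 and 4.32), and these 3 calls were lost without any 1 Bet+HMD library, those of Kcnk12 and Kcnk2 also without the first Con library and that of Kcnk12 also without the second. All 3 Kv beta genes were called, beside 39.7% of all genes. Kcnab3 was higher, and Kcnab2 (-0.34) and Kcnab1 (-0.31) were lower as log2 fold changes. In TPM neither of the last 2 was called (Kcnab2 -0.12, adjusted p = 0.326, and Kcnab1 -0.10, adjusted p = 0.369), and under quantile normalization Kcnab2 turned to 0.0842 (adjusted p = 0.417). In FPKM they lost their calls without any 1 Bet+HMD library, as did Kcns2 (-0.29), which also lost it without the first or the second Con library. Kcnh4 is among the 21 as well, by the selection described above.

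Kcnj9 and Kcna4, called against HMD, were not called against Con (log2 fold change 0.44, SE 0.20, adjusted p = 0.127, and log2 fold change -0.24, SE 0.09, adjusted p = 0.0717). Their betaine levels of 22.8 ± 1.23 and 6.09 ± 0.22 FPKM lay beside Con levels of 17.0 ± 5.37 and 7.39 ± 0.701 and HMD levels of 12.1 ± 3.62 and 4.69 ± 0.571. For Kcna4 the order from low to high was HMD, Bet+HMD, Con, and for Kcnj9 it was HMD, Con, Bet+HMD, where Con overlaps both of the others.

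Family sums are given in FPKM, whose total over all genes was lower in the Bet+HMD libraries. The group means of the 4 Kv3 genes summed to 71.5 FPKM in Con, 83.3 in HMD and 89.5 in Bet+HMD. Those of the 9 silent Kv genes summed to 66.2, 62.0 and 50.4. Single genes weighed on these sums: from HMD to Bet+HMD, silent Kcng2 went from 14.3 to 4.71 and Kcnc2, a Kv3 gene, from 23.3 to 17.9. Other families shifted too, such as the 3 Kv beta genes (142, 137 and 115) and the 3 GIRK genes (53.0, 47.7 and 63.6). Over all 70 genes the sum was 864 ± 42.5, 876 ± 30.4 and 856 ± 8.51 FPKM (mean ± SD, n = 3 libraries), so that the total of the set differed by less than its spread in Con. As a share of each library's summed FPKM, the set took 0.292% ± 0.00800, 0.301% ± 0.00908 and 0.338% ± 0.00962.

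The change also varied with gene length. Against HMD, the 23 shortest genes of the set (up to 3806 bases in the deposited length) had a median log2 fold change of -0.11, with 1 called higher and 5 lower. The 24 longest (over 5756 bases) had a median of 0.12, with 5 called higher and 2 lower. All protein-coding genes tested gave medians of -0.20 and 0.05 over the same lengths. Their calls were not counted by length, so the called counts of the set have no background here and show no trend by themselves. Against Con, the medians were -0.09 and 0.19 for the set and -0.25 and 0.08 for all protein-coding genes. Across the 70 genes Spearman's rho between length and log2 fold change was 0.34 against HMD and 0.40 against Con, a description over genes measured in the same libraries. The part of length in the calls was not tested, beyond a centring within length deciles that is among the alternatives.

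**Figure D4:**
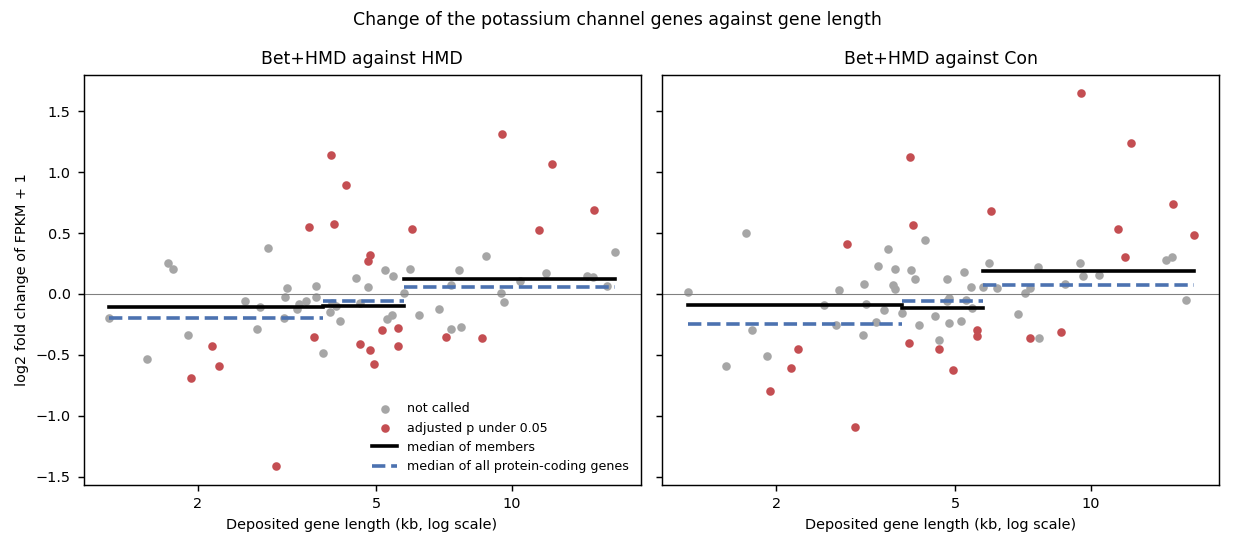
The log2 fold change of FPKM + 1 of the 70 potassium channel genes against deposited gene length in kilobases (log axis), for Bet+HMD against HMD and against Con; red points passed limma's adjusted p of 0.05. Black lines are medians of the set in 3 bins of its lengths and dashed blue lines those of all protein-coding genes, and both lie below 0 for the shortest bin and above 0 for the longest.

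A pair of genes varied between libraries of one group rather than between groups. Kcne2, a KCNE subunit of secretory epithelium, was at 2.41, 8.45 and 13.1 FPKM in Con, 6.38, 2.14 and 5.86 in HMD and 5.73, 4.83 and 5.23 in Bet+HMD. Kcnj13 (Kir7.1, of choroid plexus and retinal epithelium) was at 1.96, 11.2 and 7.83, 12.1, 3.65 and 7.13 and 6.66, 6.01 and 5.16 FPKM. The choroid plexus gene Ttr was at 754, 2515 and 3146, 2518, 842 and 1896 and 1174, 1153 and 904 FPKM in the same libraries. The first Con library and the second HMD library were the lowest of their groups in all 3 genes. Neither potassium channel gene was called in any comparison, and the part of choroid plexus tissue in their spread was not tested.

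**Figure D5:**
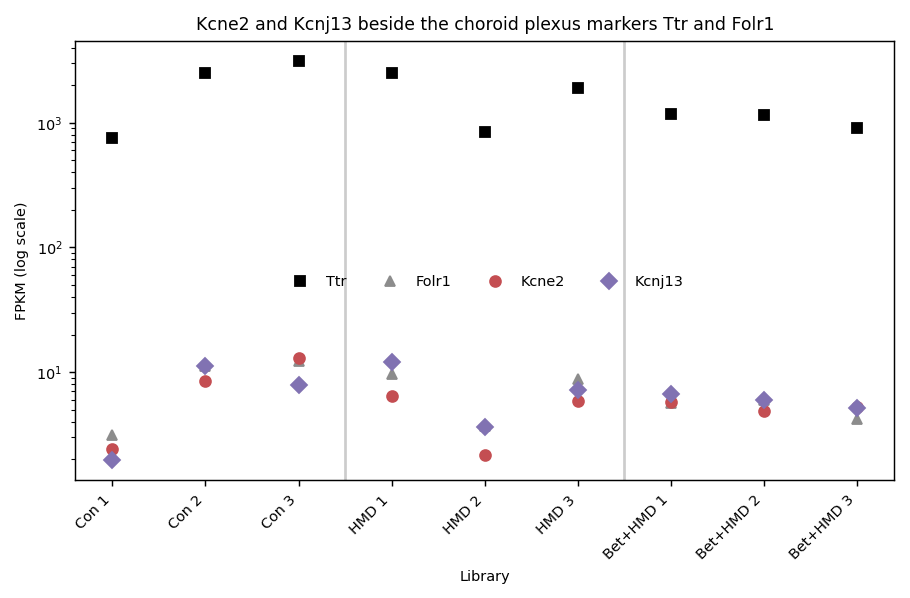
FPKM on a log axis in each of the 9 libraries for Kcne2 and Kcnj13 and for the choroid plexus markers Ttr and Folr1. The first Con and the second HMD library have the lowest values of their groups for all 4 genes.

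Genes that work with these channels were taken from lists of their partners. Of 27 genes for channel-binding and clustering proteins tested against HMD, 7 rose and 5 fell, with a median log2 fold change of 0.01 beside -0.03 for all genes. Of all genes 22.8% rose and 25.5% fell, so the list's counts were near that background. Those that rose included Abcc8, the SUR1 subunit of KATP channels (log2 fold change 0.57, SE 0.13, adjusted p = 0.00872), Akap5, an anchor of kinases at Kv7 channels (log2 fold change 0.60, SE 0.09, adjusted p = 0.00218), and Ank3, the ankyrin G that holds Kv7 channels at the axon initial segment (log2 fold change 0.55, SE 0.09, adjusted p = 0.00316). Calm3, for calmodulin, fell (log2 fold change -0.45, SE 0.10, adjusted p = 0.00837). Against Con, 10 of the 27 rose beside 19.4% of all genes and 2 fell beside 20.4%. In HMD against Con, limma called 0 of 26 of these genes, with 1 below 0.05 before adjustment beside 4.56% of all genes.

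Among 19 potassium pump, cotransport and HCN genes tested against HMD, 1 rose beside 22.8% of all genes and 6 fell beside 25.5%, with a median of -0.07 beside -0.03. Hcn2, a pacemaker channel, fell from 47.7 ± 6.11 to 28.3 ± 1.83 FPKM (log2 fold change -0.72, SE 0.10, adjusted p = 0.00137), and Atp1b1, the main neuronal sodium pump beta subunit, fell from 624 ± 40.1 to 428 ± 7.64 (log2 fold change -0.54, SE 0.07, adjusted p = 0.00115). Against Con, 2 of the 19 rose (19.4% of all genes) and 3 fell (20.4%). In HMD against Con limma called none, with 1 at an unadjusted p under 0.05 beside 4.56% of all genes.

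Voltage-gated sodium and calcium channels carry the inward currents that Kv channels oppose. Of the 12 pore genes tested, 7 rose beside 22.8% of all genes and none fell beside 25.5% by limma against HMD (median 0.34 beside -0.03). All 7 were calcium channel genes. An unadjusted p under 0.05 was reached by 9 of the 12, beside 7627 of all 13672 genes tested. No sodium channel gene was called against HMD, with limma adjusted p from 0.0693 (Scn8a) to 0.429 (Scn2a). Against Con 8 rose beside 19.4% and none fell beside 20.4% (median 0.38 beside -0.04). That unadjusted p was reached by 10, beside 6764 of 13643 genes tested. The sodium channel genes Scn1a and Scn8a were among these 8. Cacna1g, a T-type calcium channel gene, had the largest of these differences (log2 fold change 0.82, SE 0.13, adjusted p = 0.00244 against HMD), followed by Cacna1d (log2 fold change 0.80, SE 0.12, adjusted p = 0.0017). Without the second HMD library 11 of the 12 were called against HMD, beside 6990 of 13798 genes tested. Without any 1 Bet+HMD library 5 of the 12 were called in either comparison. Those fits called 4782 to 4858 of all genes against HMD and 3302 to 3424 against Con. The difference between this list and the potassium channel set was not tested.

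Of the 70 genes, 36 overlap another gene by the deposited coordinates, 33 of them one on the opposite strand. Kcnt1, Kcnk9, Kcnk12, Kcnj4 and Kcnh4 overlap none. Kcng2, Kcnk1, Kcnk2, Kcnh7 and Kcnj9 each overlap at least 1 gene on the opposite strand. Since it is not given whether counting used strand, reads of those partners may or may not be included. Kcng2, Kcnk2 and Kcnh7 also overlap at least 1 gene on the same strand, where strand cannot separate the reads.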

How the data were processed

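RNA-seq was done on ribosomal RNA-depleted hippocampal RNA in 9 libraries. Per the submitters' processing notes, reads were aligned with HISAT2 2.1.0 to mm10 and counted with featureCounts 1.5.0-p3; the published methods name other versions of both tools. The authors deposited FPKM per gene, with a gene length column, in an earlier and a later table; the COL columns were taken as Con from their names, an inference. Values in FPKM times length were whole multiples of 1 step in all columns (tolerance 0.05), so reads could be recovered.

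FPKM are not counts, so limma 3.58.1 (R 4.3.3) with a trend was fitted to log2(FPKM + 1) over all genes with a mean of at least 1 FPKM in the 2 groups, with Benjamini-Hochberg adjustment, and a gene was called at an adjusted p under 0.05. HMD against Con used the earlier table and both betaine comparisons the later table. The fit was tested on data simulated from the Con and HMD libraries, with equal spread in both groups. The betaine comparisons, whose groups differ in spread, were not simulated. Replicates of each group differed by more than sampling noise, but those of Bet+HMD differed least. Between 2 replicates in the later table, chi-square per degree of freedom was 3.00 to 4.21 in Bet+HMD. It was 22.8 to 42.2 in Con and 11.8 to 22.2 in HMD. The median coefficient of variation (SD over mean) of the set was 6.13% in Bet+HMD, 15.2% in Con and 15.1% in HMD. The cause of the smaller spread was not tested. The members, lists and tests were chosen with earlier results of these data known.

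Genes were named by rule: in each comparison the 10 largest called rises and 10 largest falls without overlap between groups, called genes with a log2 fold change of at least 1 in size, and, where fewer than 5 were called, the 5 smallest p in each direction; for levels, the 10 highest in Con, the highest of each family and 3 genes on each side of the threshold. Other called genes are named too. Some genes that the rule names, and some sequences, are not reported here, though they stay in every count. Alternatives were the later table for HMD against Con, a pseudocount of 0.1, no filter, TPM, quantile normalization, centring by median or length decile, no trend, all 3 groups in 1 fit, voom on recovered reads, a replicate block and leaving out each library. Selectivity filter stretches came from GENCODE M21 (GRCm38) transcripts by coding sequence. Kcnn2 and Kcng2 sequences are not shown.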

Additional observations from a re-analysis of the deposited data

How the results depend on the processing

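In HMD against Con, 0 potassium channel genes were called under every alternative, the later table and voom on recovered reads included. The replicate numbers were not shown to pair the libraries, since the correlations of their deviations ran from -0.18 to 0.35. With the replicate number as a block, 18 of 70 genes were called against HMD beside 41.1% of all genes. Against Con, 10 were called beside 28.8%, 7 of them higher beside 14.7%. In that fit 10 partner and transport genes and 5 sodium and calcium channel genes were called against Con. Quantile normalization called 27 potassium channel genes against HMD beside 47.2% of all genes and 34 against Con beside 38.8%. Against Con, Kcnab2 reversed there to 0.0842 (limma, adjusted p = 0.417). Without any gene filter the counts were 18 and 15, beside 7013 of 30935 and 5830 of 31061 genes tested. Leaving out 1 library at a time gave 14 to 24 genes against HMD and 8 to 25 against Con. Over all genes it gave 4782 (of 13556) to 6990 (of 13798) against HMD and 3302 (of 13548) to 6269 (of 13736) against Con. For partner and transport genes it gave 9 to 20 against Con, and for sodium and calcium channel genes 5 to 11 against HMD and 5 to 8 against Con. The median log2 fold change of the set changed sign against HMD in TPM (0.13), with centring in length deciles (0.01) and without the first HMD library (0.01). Leaving aside the 2 genes selected through the betaine libraries, 11 of 18 named genes kept their call and direction under all alternatives against HMD and 7 of 18 against Con; none of the 10 named in HMD against Con became significant. The cause of these changes was not tested. With 3 libraries a group, low genes such as Kcnh4 rest on few reads, which limits their precision.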

Other observations

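The table also holds 5 antisense genes named after potassium channels, which were no members of the set. Kcnq1ot1, the imprinted antisense RNA of the Kcnq1 locus (chr7:143203458-143296549, minus strand, deposited length 93092 bases), had a mean of 0.11 FPKM in Con, 0.13 in HMD and 0.88 in Bet+HMD. It held 130 to 265 reads in Con, 171 to 247 in HMD and 1371 to 1553 in Bet+HMD libraries. In the fit of all genes without a filter its log2 fold change was 0.74 against HMD (limma, adjusted p = 0.0022) and 0.77 against Con (adjusted p = 0.00284), on the log2(FPKM + 1) scale that understates changes of low values. The gene Kcnq1 itself, which lies on the opposite strand across this locus, had a mean of 0.14 FPKM over the 9 libraries and at most 21 reads in one.

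Kcnmb4os2, antisense to the BK beta 4 gene Kcnmb4, had means of 0.95, 1.16 and 0.41 FPKM in Con, HMD and Bet+HMD, and was lower against HMD in the same fit (log2 fold change -0.62, limma adjusted p = 0.0270). Kcnmb4 itself had means of 2.64, 2.34 and 2.07 FPKM. Kcnd3os had 0.41, 0.51 and 1.00 FPKM, with 7 to 12 reads in the Con and HMD libraries and 22 to 27 in Bet+HMD (log2 fold change 0.41 against HMD, limma adjusted p = 0.0423). Kcnmb4os1, at the same locus as Kcnmb4os2, was higher against HMD in that fit (log2 fold change 0.58, limma adjusted p = 0.0270), from 0 reads in the HMD libraries and 3 to 10 in Bet+HMD, so that its value rests on the pseudocount. Kcnab3os had at most 5 reads in a library and was not called.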
